A study of Mus musculus with 6 samples.

Results

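The Notch receptors, ligands and targets are 10 genes chosen by name from the 53647 genes counted in proximal pulmonary arteries (PAs) of mice: the receptors Notch1, Notch2, Notch3 and Notch4, the ligands Jag1, Jag2 and Dll4, and the targets Hey1, Heyl and Hes1. Their symbols were matched in the gene lists of the files, and all 10 were found. Single cell RNA sequencing libraries of 6 C57BL/6J wild-type mice were used, 2 young mice of 3 months and 4 old mice of 20, 24, 27 and 28 months, none treated or carrying an altered allele. The labels read 3m (young 1), f3m (young 2), 20m, 24m, m27mo and f28m, and 1 mouse gave 1 library. A barcode was taken as a cell when it carried 500 or more unique molecular identifiers (UMIs, tags that each mark 1 RNA molecule) from 300 or more genes and no more than 20% of them were mitochondrial. The UMIs of each cell type were then added up within each library. The study also had another library from a young mouse, not analysed here. Per the study, the arteries were taken out together with tissue around them. The vessels were digested to single cells with enzymes, so the cells of each library are those that survived digestion.

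In Notch signalling, a ligand on 1 cell binds a receptor on its neighbour. The receptor is then cut, and its inner part enters the nucleus, binds RBPJ and switches on genes such as those of the Hes and Hey families. In arteries, endothelial cells (ECs) are known for Notch1, Notch4 and Dll4, and smooth muscle cells (SMCs) for Notch3 and Notch2, which can be engaged by Jag1 on neighbouring cells. The comparisons below address which cells of the PA wall held each part of the pathway, and whether levels differed between old and young mice.

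The upstream DNA of 3 members is shown because they stand at the endothelial and mural ends of the results: Dll4 and Notch4 had the largest differences in favour of ECs over SMCs, and Notch3 the largest of the ligands and receptors in favour of SMCs. These are the 250 bases before the transcription start given by RefSeq (GRCm38.p6), with every GGAA, the core letters bound by ETS factors, in capitals on either strand.
Dll4, chr2:119325534-119325783, plus strand: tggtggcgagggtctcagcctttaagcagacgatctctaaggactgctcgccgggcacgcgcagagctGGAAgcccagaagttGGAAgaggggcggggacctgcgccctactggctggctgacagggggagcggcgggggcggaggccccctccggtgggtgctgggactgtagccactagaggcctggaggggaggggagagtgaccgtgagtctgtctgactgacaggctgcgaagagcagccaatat
Notch4, chr17:34564045-34564294, plus strand: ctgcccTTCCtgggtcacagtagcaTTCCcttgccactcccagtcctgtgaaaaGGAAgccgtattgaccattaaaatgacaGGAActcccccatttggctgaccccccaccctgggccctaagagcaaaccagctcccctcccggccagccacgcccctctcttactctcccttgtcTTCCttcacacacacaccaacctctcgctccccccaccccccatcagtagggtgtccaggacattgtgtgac
Notch3, chr17:32166891-32167140, minus strand: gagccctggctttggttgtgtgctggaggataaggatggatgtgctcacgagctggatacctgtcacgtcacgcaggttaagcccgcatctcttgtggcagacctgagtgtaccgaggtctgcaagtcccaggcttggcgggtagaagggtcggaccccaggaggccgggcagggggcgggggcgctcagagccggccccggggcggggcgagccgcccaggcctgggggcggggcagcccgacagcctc
GGAA was found 2 times upstream of Dll4, 5 times upstream of Notch4 and 0 times upstream of Notch3, beside a median of 3 over 32851 promoters, of which 93.4% held at least 1. The RefSeq table held 7 of the 10 members, all but Hey1, Heyl and Hes1. None of the 7 had TGGGAA, the core letters bound by RBPJ, in this window on either strand, and 21.6% of all promoters did. The letters CACGTG, an E-box of the kind bound by Hey proteins, and the CArG box bound by serum response factor were absent from all 7 as well, and were found in 6.02% and 1.47% of all promoters. No match says only that these letters are not in this window.

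Total depth ran from 6355125 to 50436562 UMIs per library, and 15622 barcodes passed the limits, of which 311 were removed as likely doublets. Median UMIs per barcode were 841 and 816 in the young libraries, 802 at 24 months, 2162 at 20 months, and 8150 and 5465 at 27 and 28 months. The young libraries and the 24-month library formed a set apart: they shared from 131 to 215 barcodes pairwise, against at most 4 in any other pair. The shared barcodes were mostly airway epithelial cells, and no more than 3 in any library of the set were ECs, 2 FBs and 1 SMC. The study gives the youngest of the old mice as male. Apart from Ddx3y, the sex genes of its library were like those of the libraries labelled f. That library held 2411 counts of Xist and, of the Y-linked genes, 2 of Eif2s3y, 2 of Kdm5d, 15 of Uty and 209 of Ddx3y. At 27 months the same genes had 48, 1898, 508, 2290 and 6021 counts. They had 20518, 0, 6, 0 and 2 counts in f28m, and 942, 8, 3, 19 and 11 in f3m. Barcodes that passed the limits held 3472789 UMIs at 20 months and 31297094 at 27 months, 24148809 in f28m and 1546710 in f3m. Clusters were built without the 10 members or the 63 other Notch genes listed for this work, so no member took part in naming a cell type. Each type stands for cells that are like it by markers listed for this work, and the markers of SMCs were incomplete in 2 of the 4 SMC clusters (7 and 6 of 14 raised). The first of these held 21 of 23 and 31 of 32 young SMCs, and the second 142 of 148 SMCs at 20 months. The SMC levels of the young and 20-month libraries thus rest mostly on these 2 clusters. ECs numbered 83 and 62 in the young libraries and 671, 200, 296 and 806 at 20, 24, 27 and 28 months. SMCs numbered 23 and 32 in the young libraries and 148, 2339 and 965 at 20, 27 and 28 months. At 24 months only 4 SMCs were found, too few for a level. Fibroblasts (FBs) ranged from 29 to 820 per library. The summed level of the 14 EC markers was 9191 to 14654 counts per 1000000 UMIs (CPM) in ECs, 47.8 to 258 in SMCs and 399 to 689.6 in FBs. The 14 SMC markers summed to 38432 to 60329.9 CPM in SMCs, 70.0 to 669 in ECs and 158 to 653 in FBs. No cluster was named pericyte, but pericytes were not told apart from SMCs. In both SMC clusters with 13 of 14 SMC markers raised, pericyte markers came second and also passed the 40% limit used to name a cluster. One of them held 1908 of 2339 SMCs at 27 months, and the other 849 of 965 at 28 months. The part of pericytes in the SMC levels, those of Notch3 and Heyl included, was not tested.

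Levels below are CPM within a cell type and library. The kit tags 1 end of each RNA, so a count does not grow with transcript length. Between ECs and SMCs, 8 of the 10 members passed edgeR's quasi-likelihood test at a Benjamini-Hochberg adjusted p under 0.05 (library as a block), 5 higher in ECs and 3 higher in SMCs. Of all 7435 genes tested in this comparison, 46.4% passed, and 50% of those were higher in ECs (60.6% without TMM scaling, which moved the median of all genes from 0.029 to 0.18). Between ECs and FBs 7 members passed, where 39.0% of genes did, and between SMCs and FBs 2 passed, where 39.7% did. The filter on low counts kept 9 members and left out Jag2. It keeps a gene that is high in 1 type alone. Dll4, Notch4, Notch1 and Hey1 (high in ECs) and Notch3 and Heyl (high in SMCs) were lower in the other types compared. A difference was thus built into their passing the filter. The counts and medians of members are therefore a description. With no such filter, the log2 differences of ECs over SMCs for Dll4, Notch4, Notch3 and Heyl were 7.85, 6.48, -4.25 and -5.81, and each passed. Values with no filter are not given here for Notch1 and Hey1. The median log2 difference of the 9 members was 1.18 between ECs and SMCs, 0.78 between ECs and FBs and -0.40 between SMCs and FBs, beside 0.029, 0.064 and 0.040 over all genes. With library as a block, the p-values measure how much the difference between types varies over libraries, each from 1 mouse.

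**Figure D1:**
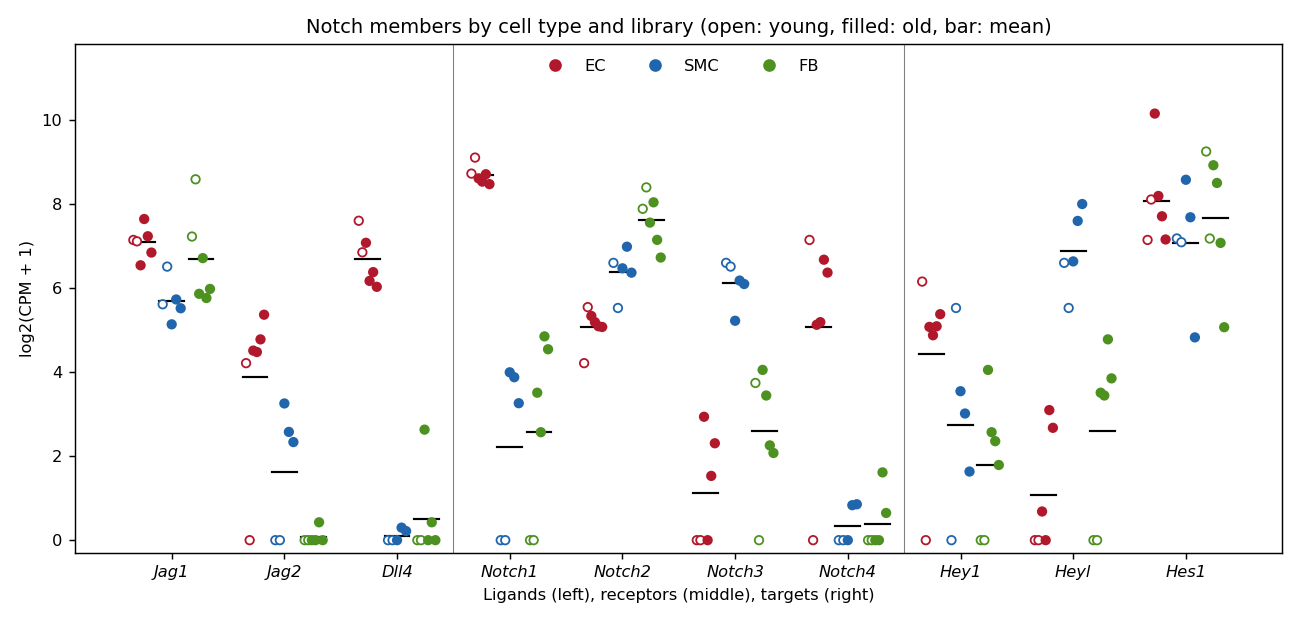
Level of each Notch member as log2(CPM + 1) in ECs (red), SMCs (blue) and FBs (green), 1 point per library, open for young and filled for old mice, with the mean of the log values as a bar. Dll4 and Notch1 lay higher in every EC library than in any SMC or FB library, and Notch3 and Heyl lay higher in every SMC library than in any EC library.

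Of the ligands, Dll4 (ENSMUSG00000027314.7), the ligand tied to arterial and sprouting endothelium, was nearly all in ECs. Its EC level was 193 and 114 CPM in the young libraries and 134, 70.8, 82.0 and 64.1 CPM at 20, 24, 27 and 28 months, a mean of 109 ± 48.6 CPM (SD, n = 6). In SMCs, 6 counts were found over all libraries, and in FBs 3. The groups did not overlap, and the difference in log2 level was 8.11 ± 0.39 (SE) between ECs and SMCs (edgeR adjusted p = 1.67e-15) and 7.54 ± 0.42 between ECs and FBs (edgeR adjusted p = 1.57e-14). With the 3 counts of FBs, the pooled ratio of ECs to FBs was 265 with a 95% counting interval (Clopper-Pearson) from 90.1 to 1289. Such intervals cover counting error only. Lymphatic ECs, seen in 2 old libraries, were the next highest type at 65.6 ± 14.6 CPM (SD, n = 2), and their range overlapped that of ECs. Every type below them had a mean under 2 CPM.

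Jag1 (ENSMUSG00000027276.8), the ligand through which ECs are known to engage Notch3 on mural cells, was not restricted to 1 type. In ECs it stood at 140 and 137 CPM in the young libraries and at 91.9, 198, 149 and 114 CPM at 20, 24, 27 and 28 months. In SMCs it ran from 34.1 to 89.9 CPM. Every EC library was above every SMC library, and the log2 difference was 1.18 ± 0.24 (edgeR adjusted p = 0.000214). Barcodes under 100 UMIs, too small to be cells, held 149 ± 69.0 CPM of Jag1 in the young libraries (SD, n = 2). Jag1 in young ECs and young SMCs was thus not shown above free RNA. FBs had 148 and 382 CPM in the young libraries but 57.0, 103, 53.1 and 61.9 CPM at 20, 24, 27 and 28 months. The means over libraries were therefore alike, 138 ± 36.0 CPM in ECs and 134 ± 127 CPM in FBs (SD, n = 6), while the fit that compares both types within each library gave a log2 difference of 0.78 ± 0.23 (edgeR adjusted p = 0.00719). This call was lost with DESeq2 (0.63, adjusted p = 0.0599), with cells thinned to 500 UMIs (0.64, edgeR adjusted p = 0.0799), without the library block (0.44, edgeR adjusted p = 0.515), without the 27-month library (0.44, edgeR adjusted p = 0.239) and without the 28-month library (0.60, edgeR adjusted p = 0.126).

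Jag2 (ENSMUSG00000002799.7), a second Jagged ligand, was led by the epithelium rather than the vessel wall. Basal airway cells held 217 ± 76.6 CPM (SD, n = 5), above every library of the next type, ciliated airway cells, with 47.0 ± 21.7 CPM (SD, n = 6). In ECs the level was 17.5 and 0 CPM in the young libraries, resting on 1 and 0 counts, and 21.8, 21.2, 26.4 and 40.1 CPM at 20, 24, 27 and 28 months. SMCs held 3.50 ± 3.61 CPM (SD, n = 5), and FBs 1 count in all. With no filter on low counts, Jag2 was higher in ECs than in SMCs by 2.29 ± 0.39 on the log2 scale (edgeR adjusted p = 4.75e-08), and the pooled ratio of ECs to SMCs was 6.51 (counting interval 5.18 to 8.19). The adjusted p was less extreme in filtered settings that kept Jag2. Without the 3 libraries that share barcodes the log2 difference was 2.52 ± 0.38 (edgeR adjusted p = 0.000386).

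Of the receptors, Notch1 (ENSMUSG00000026923.16) was the most even endothelial member. It measured 420.1 and 547 CPM in young ECs and 388, 368, 416 and 353 CPM at 20, 24, 27 and 28 months. Its mean of 415 ± 69.8 CPM (SD, n = 6) stood against 7.43 ± 7.19 CPM in SMCs (SD, n = 5) and 10.9 ± 11.7 CPM in FBs (SD, n = 6), with no overlap. The log2 differences were 5.08 ± 0.31 against SMCs (edgeR adjusted p = 1.64e-13) and 4.34 ± 0.27 against FBs (edgeR adjusted p = 2.18e-13). Lymphatic ECs followed at 292 ± 25.6 CPM (SD, n = 2), below every EC library. Neutrophils held 105 ± 148 CPM (SD, n = 2) and perivascular macrophages (MFs) 101 ± 35.4 CPM (SD, n = 6), and these overlapped. Young cells named perivascular MFs lay mostly in a cluster with 5 of 12 MF markers raised, so that name is less sure for them.

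Notch4 (ENSMUSG00000015468.15), a receptor known from vascular endothelium, was uneven within ECs. It was at 140.0 CPM in young 1 and at 0 in young 2, where 3 counts would have been 68.4 CPM, so a level up to that could have been missed. The old libraries had 33.8, 35.4, 101 and 81.3 CPM at 20, 24, 27 and 28 months. SMCs held 22 counts over all libraries and FBs 9. The log2 difference was 6.75 ± 0.36 against SMCs (edgeR adjusted p = 3.53e-14) and 6.34 ± 0.38 against FBs (edgeR adjusted p = 3.05e-13). Only young 2, with 0 counts, overlapped SMCs and FBs.

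Notch3 (ENSMUSG00000038146.9), the mural receptor, was higher in SMCs than in every other type, with no overlap. Its SMC level was 95.7 and 89.9 CPM in the young libraries, each from 2 counts, and 36.2, 71.2 and 67.2 CPM at 20, 27 and 28 months. ECs held 24 counts in all and a mean of 2.08 ± 2.73 CPM (SD, n = 6). Against ECs the log2 difference put SMCs higher, at -4.11 ± 0.37 for ECs over SMCs (edgeR adjusted p = 6.02e-10), and against FBs it was 3.96 ± 0.36 (edgeR adjusted p = 5.84e-10). ECs and FBs, at 7.46 ± 6.04 CPM (SD, n = 6), did not differ beyond their spread (-0.15 ± 0.52, edgeR adjusted p = 0.857).

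Notch2 (ENSMUSG00000027878.12) was the broadest receptor. It was at 33.9 ± 9.38 CPM in ECs (SD, n = 6), 86.9 ± 28.9 CPM in SMCs (SD, n = 5) and 210.3 ± 84.0 CPM in FBs (SD, n = 6). Barcodes under 100 UMIs held 58.7 ± 5.57 CPM of Notch2 in young libraries (SD, n = 2) and 46.5 ± 17.5 CPM in old ones (SD, n = 4). Notch2 in ECs was thus not shown above free RNA. Neutrophils lay at 261 ± 109.9 CPM (SD, n = 2). Perivascular MFs, monocytes or dendritic cells and B cells lay at 249.7 ± 94.8 (SD, n = 6), 224 ± 89.9 (SD, n = 6) and 221 ± 86.4 CPM (SD, n = 5), and the ranges of all these neighbours overlapped, that of FBs included. ECs were lower than SMCs by a log2 difference of -1.68 ± 0.25 (edgeR adjusted p = 2.55e-06) and lower than FBs by -2.21 ± 0.24 (edgeR adjusted p = 1.16e-08). SMCs and FBs gave -0.53 ± 0.24 (edgeR adjusted p = 0.0758). Notch1 gave -0.74 ± 0.31 for the same pair of types (edgeR adjusted p = 0.0627), and the call on these 2 receptors depended on the setting: both passed without TMM scaling, at -0.65 (edgeR adjusted p = 0.0238) and -0.89 (edgeR adjusted p = 0.0244).

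**Figure D2:**
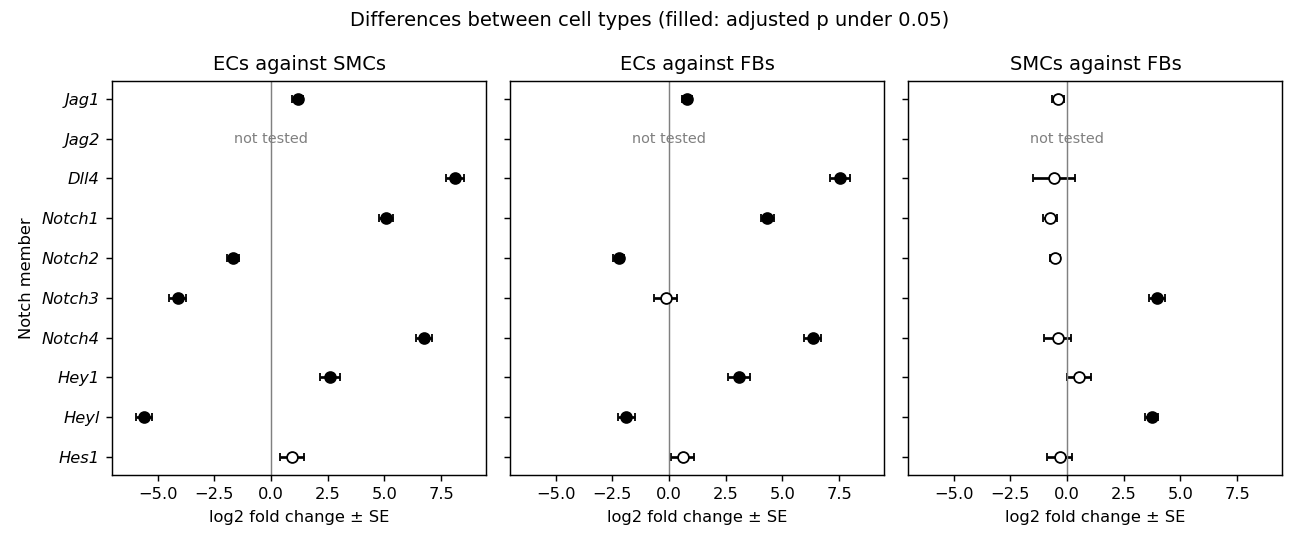
Log2 fold change with its standard error for each Notch member between ECs and SMCs, ECs and FBs, and SMCs and FBs (first type over second), filled where the edgeR adjusted p was under 0.05. Dll4, Notch4, Notch1, Hey1 and Jag1 were filled and lay to the right (higher in ECs) in both comparisons with ECs. Hes1 lay to the right in both but was open. Only Notch3 and Heyl were filled between SMCs and FBs.

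The 3 target genes divided between the types. Heyl (ENSMUSG00000032744.5), a transcriptional repressor known from SMCs, had 95.7 and 44.9 CPM in young SMCs, from 2 counts and 1 count, and 98.0, 192 and 254 CPM at 20, 27 and 28 months. In ECs its mean was 2.25 ± 3.34 CPM (SD, n = 6) and in FBs 10.0 ± 9.80 CPM (SD, n = 6), and neither overlapped SMCs. One library of erythroid cells reached 63.1 CPM. The log2 difference of ECs over SMCs was -5.61 ± 0.34 (edgeR adjusted p = 1.00e-13), and that of SMCs over FBs was 3.73 ± 0.29 (edgeR adjusted p = 2.89e-11).

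Hey1 (ENSMUSG00000040289.9), a related repressor known from arterial endothelium, was higher in ECs by 2.58 ± 0.44 over SMCs (edgeR adjusted p = 3.26e-05) and by 3.09 ± 0.47 over FBs (edgeR adjusted p = 7.42e-06). The old EC libraries were close together at 32.6, 28.3, 33.0 and 40.5 CPM at 20, 24, 27 and 28 months. The young ones were at 70.0 and 0 CPM, from 4 and 0 counts. Ciliated airway cells reached the same level, 33.5 ± 5.06 CPM (SD, n = 6).

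Hes1 (ENSMUSG00000022528.9), which many signals besides Notch induce, did not separate the vessel wall types. Its EC level was 140.0 and 274 CPM in the young libraries and 1131, 290.1, 207 and 141 CPM at 20, 24, 27 and 28 months, so that the 20-month library stood far above the others. The log2 difference was 0.92 ± 0.53 between ECs and SMCs (edgeR adjusted p = 0.184), 0.60 ± 0.50 between ECs and FBs (edgeR adjusted p = 0.381) and -0.32 ± 0.56 between SMCs and FBs (edgeR adjusted p = 0.714). Without the 3 libraries that share barcodes, Hes1 in ECs passed against FBs (1.40, edgeR adjusted p = 0.0290). Its levels moved with 22 immediate early and heat shock genes known to rise during tissue digestion. Over the 23 profiles of ECs, SMCs, FBs and perivascular MFs, log2 levels of Hes1 and of the summed list had Pearson r = 0.67 and Spearman rho = 0.54, as a description, since the profiles share libraries. The 28-month library had the lowest summed level in each of the 4 types (3508 to 5688 CPM) and the lowest Hes1 in SMCs, FBs and perivascular MFs (27.3, 32.5 and 30.1 CPM). Within types the values were r = 0.84 and rho = 0.71 in FBs (n = 6), 0.73 and 0.50 in SMCs (n = 5), 0.70 and 0.43 in perivascular MFs (n = 6) and 0.40 and -0.03 in ECs (n = 6). Of the 22 genes, 8 were higher in ECs than in SMCs (36.4%, beside 46.4% of all genes called), 6 higher in ECs than in FBs (27.3%, beside 39.0%), and 3 higher and 5 lower in SMCs than in FBs (36.4%, beside 39.7%). The part of digestion in these levels was not tested. Barcodes under 100 UMIs held 41.5 ± 2.66 CPM of Hes1 in young libraries (SD, n = 2) and 115 ± 125 CPM in old ones (SD, n = 4). The part of free RNA in its levels was not tested either. Hes1 was highest in basal airway cells, at 547 ± 254 CPM (SD, n = 5), and the ranges of lymphatic ECs, ciliated airway cells and ECs overlapped with it.

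Set side by side within a library, the ligands Dll4 and Jag1 in ECs and the receptors Notch3 and Notch2 in SMCs were each counted more than 3 times in the 3 old libraries with SMCs. Jag1 and Notch2 were not particular to these types, with means of 134 and 210.3 CPM in FBs. At 27 months ECs held 82.0 CPM of Dll4 and 149 CPM of Jag1, and SMCs held 71.2 CPM of Notch3 and 125 CPM of Notch2. At 28 months the same values were 64.1 and 114 CPM in ECs and 67.2 and 81.2 CPM in SMCs. At 20 months they were 134 and 91.9 CPM in ECs and 36.2 and 87.4 CPM in SMCs. These EC values pool all ECs of a library. At 28 and 27 months, capillary-like ECs, described below, held 186 and 257 CPM of Dll4, and arterial-like ones 57.5 and 83.1 CPM. Jag1 was at 33.6 and 11.7 CPM in the first and 164 and 205 CPM in the second. Which ECs lay next to SMCs cannot be told from these counts. The young libraries held 2 and 2 counts of Notch3 and 2 and 1 of Notch2 in SMCs, under 3 counts, and their barcodes under 100 UMIs held 49.7 and 22.4 CPM of Notch3 and 62.7 and 54.8 CPM of Notch2, so presence in young SMCs was not shown above free RNA. The share of cells with a UMI depended on depth: 62.5% of ECs at 27 months had a Notch1 UMI against 22.9% in young 1, and 17.6% against 16.9% once each cell was thinned to 500 UMIs. At 500 UMIs a Notch1 UMI was found in 0.941% of SMCs at 27 months, and Notch3 UMIs in 4.36% of SMCs and 0% of ECs there.

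**Figure D3:**
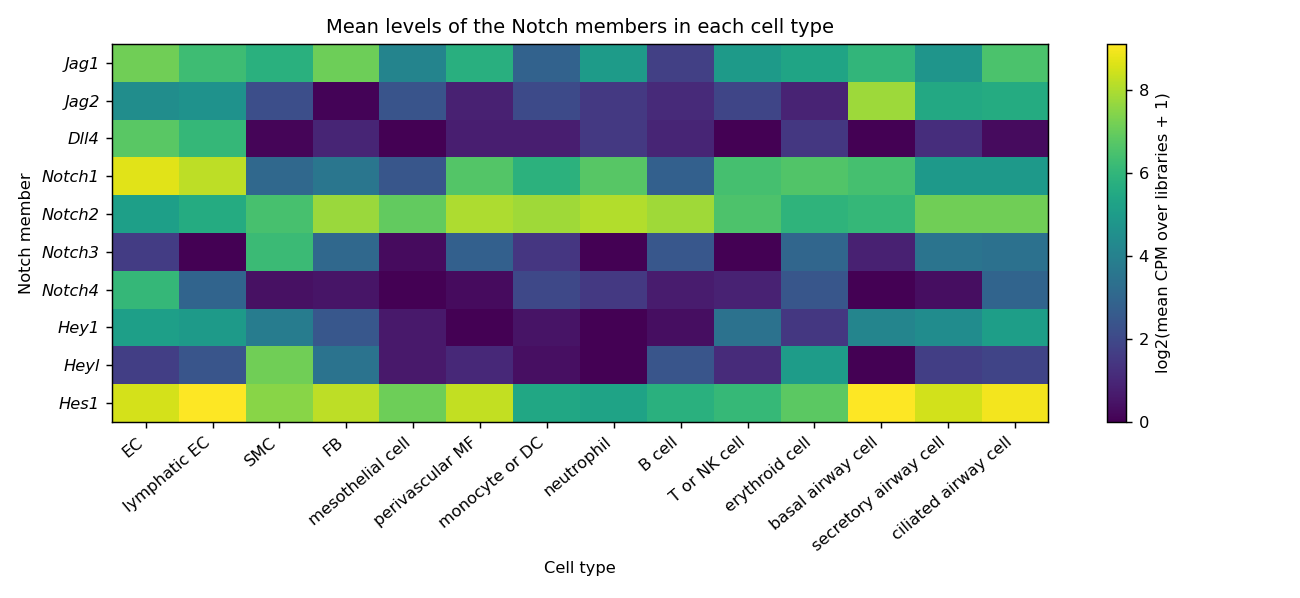
Mean level of each Notch member over libraries, as log2(mean CPM + 1), in every cell type with at least 10 cells in 2 or more libraries. Dll4 and Notch1 were highest in blood and lymphatic ECs, Notch3 and Heyl in SMCs, and Jag2 in basal airway cells.

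Across the 66 profiles of a cell type in a library, the members closest to each other were Notch4 and Dll4 (Pearson r = 0.72 of log2(CPM + 1)) and Notch3 and Heyl (r = 0.70). Among all genes with a mean of at least 10 CPM, Dll4 was most like Sox18 (r = 0.93), Tie1 (0.90) and Pkn3 (0.87). Heyl was most like Actg2 (0.87), Carmn (0.86) and Scube3 (0.85), and Notch3 like Jph2 (0.73), Ccn3 (0.71) and Heyl. Notch4 came closest to Arhgef15 (0.75), Ushbp1 (0.75) and Sox18 (0.74). Tie1 and Actg2 are markers that named the ECs and SMCs, and all of these profiles share libraries and depth. The partners of the other members were Jag2 with Ptpru (0.83), Sdc1 (0.82) and AA986860 (0.82), Hey1 with Pir (0.75), Cyb561 (0.72) and Epas1 (0.71), Jag1 with Pam (0.75), Luzp1 (0.69) and Pcsk5 (0.69), Notch1 with Rab27a (0.72), Tbkbp1 (0.72) and Map3k11 (0.70), Hes1 with Jun (0.70), Tsc22d1 (0.68) and Gstm1 (0.67), and Notch2 with Lamtor4 (0.65), Capza2 (0.65) and Nampt (0.64).

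Within the endothelium, Jag1 on the one hand and Dll4, Jag2 and Hes1 on the other were higher in different subclusters of the 27- and 28-month libraries. ECs were clustered again without Notch genes, and 1 subcluster was named arterial-like (5 of 12 markers raised) and 1 capillary-like (8 of 12 markers raised). These hold 617 of 2118 ECs, and the other 9 subclusters, which hold all but a few ECs of the young, 20-month and 24-month libraries, stayed unnamed. Both held at least 10 cells only at 28 months (339 and 175 cells) and at 27 months (71 and 25 cells), so values are given with no test. Dll4 was at 57.5 and 83.1 CPM in arterial-like ECs at 28 and 27 months and at 186 and 257 CPM in capillary-like ECs. Jag2 was at 23.7 and 24.5 CPM against 173 and 140.4 CPM, and Hes1 at 64.2 and 88.0 CPM against 473 and 585 CPM. These 3 members were higher in capillary-like ECs in both libraries. Jag1 ran the other way, with 164 and 205 CPM in arterial-like ECs and 33.6 and 11.7 CPM in capillary-like ones, the last from 1 count. Notch1 was nearly level, at 375 and 372 CPM against 372 and 398 CPM, and Notch4 had no shared direction (85.4 and 127 CPM against 152 and 105 CPM). The unnamed subclusters did not all follow this pattern. Hes1 ran from 516 to 1594 CPM in those of the 20-month library, and 1 subcluster at 28 months (144 cells) had low Dll4, at 13.8 CPM, with Jag1 at 70.1 CPM. The summed digestion genes were also higher in capillary-like ECs, at 8045 and 16178 CPM against 6047 and 4969 CPM. Notch3 was at 24.7 and 11.7 CPM in capillary-like ECs and at 0 in arterial-like ones; the 12 pericyte markers summed to 509 and 93.6 CPM in the first and 68.5 and 78.3 CPM in the second. Lung macrophage markers summed to 1250.5 and 1567 CPM in capillary-like and 71.8 and 63.6 CPM in arterial-like ECs. In the capillary-like ECs, 4 and 2 of the 10 genes on that list had a count. Perivascular MF markers ran the other way, at 345 and 175 against 577 and 572 CPM. So did monocyte or dendritic cell markers, at 166 and 58.5 against 461 and 328 CPM. Erythroid markers summed to 25008 and 35.1 in capillary-like against 2270.3 and 29.3 CPM in arterial-like ECs. The part of these other genes in the differences was not tested.

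**Figure D4:**
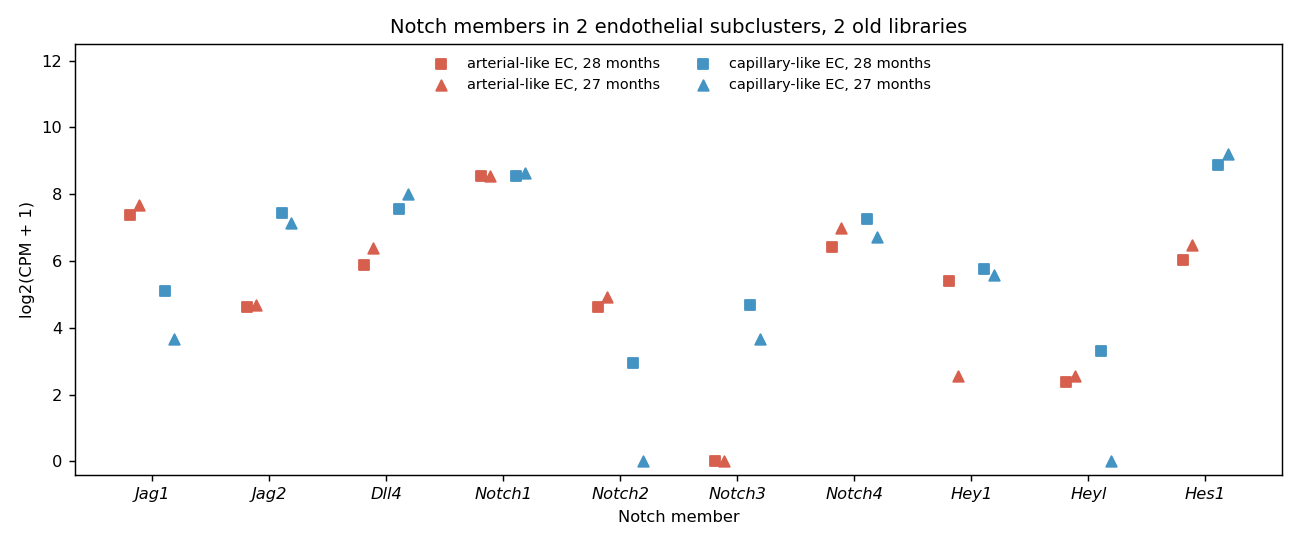
Level of each Notch member as log2(CPM + 1) in arterial-like (red) and capillary-like (blue) ECs of the 28-month (squares) and 27-month (triangles) libraries. Jag1 lay higher in arterial-like ECs, and Jag2, Dll4 and Hes1 lay higher in capillary-like ECs, in both libraries.

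Of the other Notch genes listed, 42 of 63 could be tested between the types. They were called in 45.2% of cases between ECs and SMCs, 52.4% between ECs and FBs and 31.0% between SMCs and FBs, beside 46.4%, 39.0% and 39.7% of all genes. Between ECs and SMCs 17 were higher and 2 lower in ECs (median log2 difference 0.40, beside 0.029 over all genes), between ECs and FBs 17 and 5 (0.39 beside 0.064), and between SMCs and FBs 3 and 10 (-0.089 beside 0.040). Dll1, a further Delta ligand, was higher in ECs than in SMCs by 6.90 ± 0.50 (edgeR adjusted p = 1.52e-09), with a mean of 148 ± 62.8 CPM in ECs (SD, n = 6), and higher than in FBs by 5.98 ± 0.49. Nrarp, a target that restrains the pathway, was higher by 6.52 ± 0.38 and 7.31 ± 0.46 in the same comparisons, and Bhlhe40 by 3.70 ± 0.48 over SMCs. In SMCs and FBs, Dll1 had means of 0.697 and 4.74 CPM, and Nrarp of 0.326 and 0.609 CPM. Both passed the filter on low counts through ECs, so a difference was built into their passing it. Bhlhe40 was likewise low in SMCs, at 12.7 CPM, beside 437 CPM in ECs and 128 CPM in FBs. The counts and medians of the wider list are therefore a description as well. The target Hey2 was higher than in FBs both in ECs (5.10 ± 0.31) and in SMCs (4.59 ± 0.31). Its mean was 3.44 CPM in FBs, beside 88.1 CPM in ECs and 96.6 CPM in SMCs. Hey2 passed the filter through ECs and SMCs, so a difference from FBs was built in there too. Rbpj, the DNA-binding partner of every receptor, was lower in ECs than in FBs by -1.64 ± 0.22 (edgeR adjusted p = 7.04e-07). Numbl and Dtx3, which act on receptor traffic and ubiquitination, were lower in ECs than in SMCs (-1.65 ± 0.31 and -1.45 ± 0.22) and than in FBs (-2.69 ± 0.29 and -1.17 ± 0.22). Of the 9 receptor-cleaving genes tested, 5 were higher in ECs than in SMCs (55.6%, beside 46.4% of all genes called), and Furin (0.86 ± 0.24) was higher in SMCs than in FBs. Tle1, a co-repressor, was higher in SMCs than in FBs by 0.91 ± 0.26, and Bhlhe40 (-2.12 ± 0.47), Adam17 (-1.31 ± 0.23) and Ncstn (-1.09 ± 0.24) were lower.

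Old and young libraries were then compared within each type, the question of age for which the mice were chosen. No member passed in ECs, SMCs, FBs or perivascular MFs (edgeR adjusted p under 0.05), among 7, 5, 3 and 4 members tested. A member was tested where over 5% of cells had a UMI of it in 3 or more libraries, a share that depends on depth. The members' median log2 difference (old over young) was -0.15 in ECs, 0.89 in SMCs, -0.65 in FBs and -0.52 in perivascular MFs, beside 0.17, 0.53, 0.19 and 0.35 over all genes. Without TMM scaling the medians of all genes in SMCs and perivascular MFs were 0.11 and 0.23. Of all genes tested 0% passed in ECs, 0% in SMCs, 0.0441% in FBs and 0% in perivascular MFs. DESeq2 called no member either, and gave no adjusted p for Jag1 in perivascular MFs. At an unadjusted p under 0.05, 1 member passed in FBs and 1 in perivascular MFs, Jag1 in both, and none in ECs or SMCs. The shares of all genes at that threshold were 6% in ECs, 8.02% in SMCs, 6.33% in FBs and 8.37% in perivascular MFs. Young profiles were shallow: 3 counts were worth 52.5 and 68.4 CPM in young ECs and 143 and 135 CPM in young SMCs. In sums over cells, fewer expressing cells and less RNA per cell cannot be told apart. Different clusters supplied the types in the groups. Young ECs lay almost all in 1 cluster (79 of 83 and 60 of 62 cells) that also held 189 ECs of the 24-month library, and young SMCs lay in another (21 of 23 and 31 of 32). The 20-month ECs and SMCs lay mostly in clusters made up nearly or wholly of that library (624 of 671 and 142 of 148). Young FBs lay mostly in a cluster (84 of 92 and 29 of 29) shared with FBs at 20 and 24 months (126 of 132 and 202 of 218). That cluster held only 33 of 496 FBs at 27 months and 61 of 820 at 28 months. Most FBs of these 2 libraries (463 and 759) lay in another cluster. Young perivascular MFs too lay mostly apart from those at 27 and 28 months, as described below. The summed digestion genes were lower in 4 of 4 old libraries than in both young ones in ECs (32433 and 27934 CPM young, 5688 to 26065 CPM old) and in perivascular MFs (24306 and 22638 CPM young, 4663 to 20274 CPM old). Summed erythroid markers in ECs were 28084 and 6982 CPM at 24 and 28 months and 26.4 to 410.5 CPM in the other libraries, and 28223 and 14929 CPM in perivascular MFs beside 16.4 to 605 CPM. In FBs they were 28342 and 8657 CPM beside 20.9 to 382 CPM. The part of these genes in the differences by age was not tested. Summed cardiomyocyte markers were 5931 CPM in the SMCs of young 1, beside 766 to 1084 CPM in the other SMC libraries.

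In ECs, Dll4 gave a log2 difference (old over young) of -0.75 ± 0.56 (edgeR adjusted p = 0.911), from 153 ± 55.5 CPM in young (SD, n = 2) to 87.6 ± 31.5 CPM in old libraries (SD, n = 4). Notch1 was below both young libraries in 4 of 4 old ones, at 381 ± 27.1 against 484 ± 89.9 CPM, with a log2 difference of -0.29 ± 0.45 (edgeR adjusted p = 0.956). Jag1 stood at 138 CPM in both groups (0.0018 ± 0.54, edgeR adjusted p = 1.000). In barcodes under 100 UMIs, Jag1 was at 149 ± 69.0 CPM in young (SD, n = 2) and 36.9 ± 18.1 CPM in old libraries (SD, n = 4). The young EC level of Jag1 was thus not shown above free RNA, and the part of free RNA in its comparison was not tested. Notch2, Notch4 and Hey1 gave 0.26 ± 0.77, -0.24 ± 0.82 and -0.15 ± 0.81, with adjusted p from 0.988 to 0.998. Notch2 rests on 3 young counts, and its pooled ratio of old to young was 1.17 with a counting interval from 0.394 to 5.71. Hes1 gave 1.26 ± 0.96 (edgeR adjusted p = 0.918), a value that was 0.13 without the 20-month library. Jag2 (1 young count), Notch3 and Heyl (0 young counts each) could not be tested. With 2 standard errors on either side, the values for Notch2, Notch4, Jag1 and Hey1 reach past a 2-fold difference in each direction.

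In SMCs both young libraries share barcodes with each other and all 3 old ones lie outside that set, so that set cannot be told apart from age. Heyl was higher in 3 of 3 old libraries, at 181 ± 78.5 CPM (SD, n = 3) against 70.3 ± 35.9 CPM (SD, n = 2), with a log2 difference of 1.75 ± 0.84 (edgeR adjusted p = 0.611). With 3 young counts its pooled ratio was 2.93, with a counting interval from 1.00 to 14.2. Notch3 was lower in 3 of 3 old libraries, at 58.2 ± 19.1 against 92.8 ± 4.08 CPM, from 4 young counts (-0.27 ± 0.80, edgeR adjusted p = 0.959). The pooled ratios were 1.65 (0.565 to 8.02) for Notch2 and 0.720 (0.246 to 3.49) for Jag1, each from 3 young counts, and 1.21 (0.556 to 3.30) for Hes1. Notch1, Notch4, Jag2 and Dll4 had 0 counts in both young SMC libraries, below what depth could show, and Hey1 had 1.

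Jag1 showed the lowest p by age among the members tested in FBs and perivascular MFs. In FBs it was 148 and 382 CPM in the young libraries and 53.1 to 103 CPM in the 4 old ones, without overlap, a log2 difference of -1.71 ± 0.54 (edgeR adjusted p = 0.714). In perivascular MFs it was 124 and 126 CPM in the young and 10.4, 39.3, 10.0 and 5.02 CPM at 20, 24, 27 and 28 months (-3.29 ± 0.91, edgeR adjusted p = 0.593). Neither passed the correction over all genes. Barcodes under 100 UMIs, too small to be cells, held Jag1 at 99.7 and 197 CPM in the young libraries and at 39.2, 61.1, 19.4 and 27.8 CPM at 20, 24, 27 and 28 months. That difference had an exact permutation p of 0.133, the smallest that 2 against 4 libraries can give, and 0.667 after adjustment over the 10 members. Jag1 in these small barcodes thus moved with its level in FBs and perivascular MFs, and the part of free RNA was not tested. In perivascular MFs Jag1 was below the small barcodes of the same library in young 2 and at 20, 24, 27 and 28 months. Only young 1 was above, at 124 against 99.7 CPM, so Jag1 in perivascular MFs was not shown above free RNA. In FBs Jag1 was above the small barcodes in each library. Within the set that shares barcodes, the 24-month library was below both young ones in both types, at 103 and 39.3 CPM. With that set as a covariate the log2 difference was -0.90 in FBs (edgeR adjusted p = 0.992) and -1.36 in perivascular MFs (edgeR adjusted p = 0.996). Young perivascular MFs lay mostly in a cluster with 5 of 12 MF markers raised (46 of 53 and 35 of 36 cells), which among old libraries held cells of the 24-month library (92 of 97). All 227 and 415 cells at 27 and 28 months lay in another cluster, with 11 of 12 raised. At 20 months 111 of 114 lay in a separate cluster. Leading genes included Prg4, Saa3 and Slpi in the cluster of the young cells, and Ccl8, Cd209f and Mrc1 in that at 27 and 28 months. The share of markers raised in the cluster of the young cells, 41.7%, was just above the naming limit of 40%. It was thus not shown that young and old cells named perivascular MFs are the same kind of macrophage. Apart from the 24-month library, age and cluster thus cannot be told apart in this type.

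The remaining members in these types did not move beyond their spread. In FBs Notch2 gave -0.57 ± 0.54 (edgeR adjusted p = 0.909) and Hes1 -0.65 ± 1.29 (0.983). In perivascular MFs Notch1 gave -0.28 ± 0.55 (0.899), Notch2 0.00079 ± 0.65 (1.000) and Hes1 -0.75 ± 1.18 (0.872). Notch1, Notch4, Hey1, Heyl, Jag2 and Dll4 had 0 counts in both young FB libraries, where 3 counts would be 37.0 and 143 CPM, and Notch3 had 1. In perivascular MFs Notch4, Jag2, Dll4 and Heyl had 0 young counts, Notch3 had 1, and Hey1 had 0 counts in all 6 libraries. None of the 63 other Notch genes passed in any type, with 0 of 40 tested in ECs at an unadjusted p under 0.05, 3 of 35 in SMCs, 2 of 37 in FBs and 3 of 37 in perivascular MFs.

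**Figure D5:**
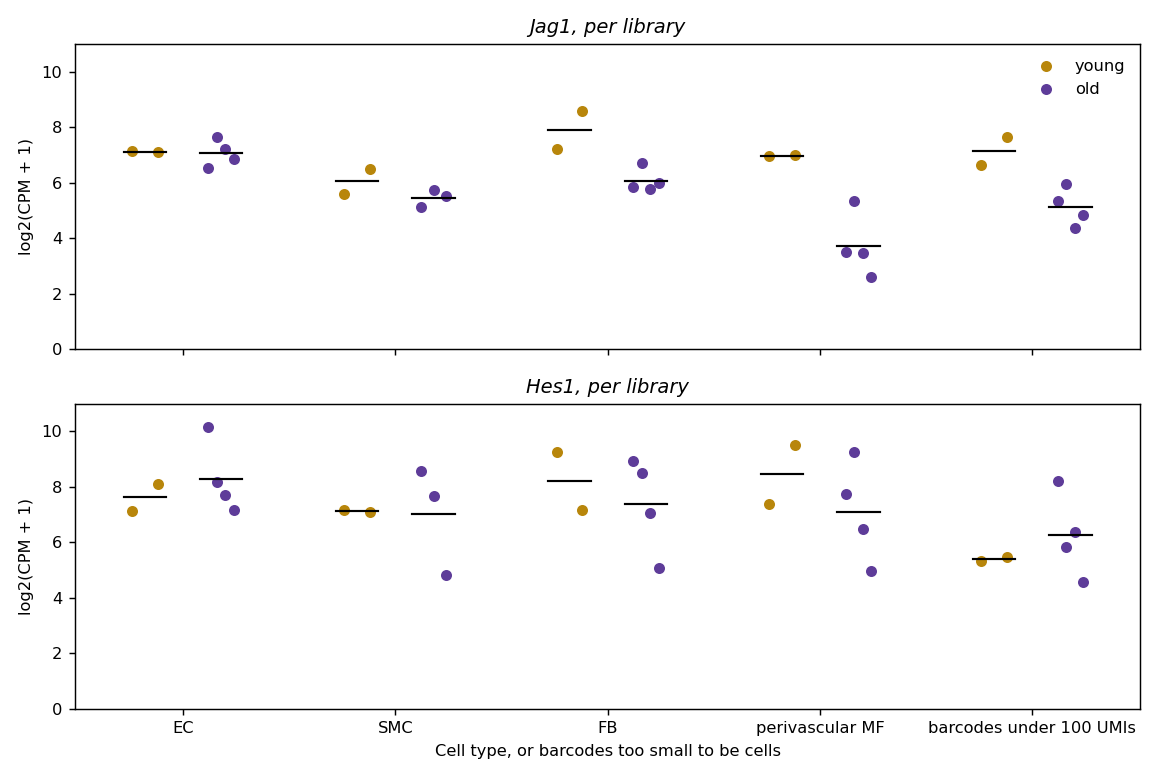
Levels of Jag1 (top) and Hes1 (bottom) as log2(CPM + 1) per library in young (gold) and old (purple) mice, with the mean of the log values as a bar, in 4 cell types and in barcodes under 100 UMIs. In FBs, perivascular MFs and the small barcodes, Jag1 in the old libraries lay below the young range throughout, and Hes1 overlapped between the ages in the 4 cell types.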

How the data were processed

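Cells from proximal PAs of 6 mice were profiled with a 3' droplet kit, 1 library per mouse. Per the labels and the study's methods, the authors trimmed reads with Cutadapt, aligned and counted them with STARsolo on GRCm38.p6, and deposited raw UMI counts per gene and barcode with no cell filter. Tool versions are not given in the sources used here. From these counts, barcodes were filtered, 311 likely doublets were removed with Scrublet in scanpy 1.11.5 (in 4 libraries the top-scoring share expected from the barcode number, in 2 the caller's own threshold), and cells were clustered (2000 variable genes, 40 principal components, Leiden resolution 1.0) without the members and the wider Notch list. A cluster was named where at least 40% of a type's markers were raised at least 2-fold. Counts were added up per library and type where at least 10 cells were present.

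Tests used edgeR 4.0.16 (quasi-likelihood, robust, TMM, Benjamini-Hochberg over all genes tested, adjusted p under 0.05). The types were compared in 1 fit of ECs, SMCs and FBs with library as a block, since the cells of a library come from the same mouse. Age was compared per type over genes with a UMI in over 5% of a type's cells in 3 or more libraries. Standard errors were derived from the fold change and its F statistic. DESeq2 1.42.0, other filters, scalings and clusterings, and leaving out libraries were alternatives. The code was tested on simulated data. All 10 members were named in every comparison, and from the wider list of 63 genes the 3 with the largest passing change in each direction. The members and lists were chosen with earlier results of these data known. Depth per library and the level that 3 counts represent limit the precision, and intervals (95%) cover counting error only.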

Additional observations from a re-analysis of the deposited data

Results flagged for a closer look

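Among 29 groups of old libraries tested for a value far from the others, 5 had one. No chance rate can be set beside this, since a gene counted in only 1 library of a group is always flagged. Hes1 in ECs stood at 1131 CPM at 20 months, beside 141 to 290.1 CPM in the other old libraries. Jag1 in perivascular MFs stood at 39.3 CPM at 24 months, beside 5.02 to 10.4 CPM. The other 3 rest on few counts: Dll4 in FBs was 5.18 CPM at 20 months, Notch4 in perivascular MFs was 1.16 CPM at 28 months, and Jag2 in FBs was 0.343 CPM at 27 months, from 1 count.

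Notch1 was below both young libraries in every old EC library (mean 381 CPM), a difference within its error. Every old SMC library (mean 12.4 CPM) and every old FB library (mean 16.3 CPM) lay above both young ones, which had 0 counts, where 3 counts are worth 143 and 135 CPM in SMCs and 37.0 and 143 CPM in FBs. The old levels in SMCs and FBs thus lay below the detection limit of the young libraries in both types, so no direction is shown there, and the difference between types was not tested.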

How the results depend on the processing

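Directions between ECs and SMCs did not reverse under any alternative run. The number of members called was lower in several settings where fewer members could be tested, but it also moved with 9 members tested: without TMM scaling from 2 to 4 between SMCs and FBs, and without the library as a block from 7 to 6 between ECs and FBs. Between ECs and SMCs (8 called of 9 tested) it was 5 of 6 with doublets kept, 5 of 6 with all genes allowed in clustering and 3 of 4 with cells thinned to 500 UMIs, and from 4 to 9 when 1 library was left out. Between ECs and FBs (7 called) it was 2 of 4 after thinning, and from 3 to 8 when 1 library was left out. Between SMCs and FBs (2 called) it was 4 with at least 1000 UMIs, 4 without TMM scaling, 4 without the 3 libraries that share barcodes, 4 in old libraries only, 1 with all genes allowed in clustering and 1 after thinning. It ran from 0 to 4 when 1 library was left out. The counts fell to 4, 3 and 1 without the 27-month library and to 4, 3 and 0 without the 28-month library, where 5 members were tested. Without the library as a block, 8, 6 and 2 members passed in the 3 comparisons.

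Notch3 between ECs and FBs turned to 0.12 with at least 1000 UMIs. Hes1 between SMCs and FBs turned to 0.12 with at least 1000 UMIs, 0.12 after thinning, 0.24 without the 3 sharing libraries and 0.042 in old libraries only. Dll4 between SMCs and FBs ran from -1.51 to 0.58 when 1 library was left out. None of these had passed the test, and the cause was not tested.

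By age, 0 members were called under every alternative run, and 36 values reversed while 280 did not. With no gene filter, values turned to 0.062 (Notch1), 0.13 (Notch4) and 0.23 (Hey1) in ECs, 0.43 (Notch3) and 0.43 (Jag1) in SMCs and 0.11 (Notch1) in perivascular MFs. Jag1 in ECs turned to -0.055 with at most 10% mitochondrial UMIs, -0.10 with doublets kept, -0.053 with all genes in clustering, -0.077 without shared barcodes, -0.081 with DESeq2 and -0.039 without TMM scaling. Notch4 in ECs turned to 0.23 after thinning and Hey1 to 0.027 with filterByExpr. With the sharing set as a covariate, Notch2 in FBs turned to 0.17 and Hes1 in perivascular MFs to 0.71. In perivascular MFs Notch1 turned to 0.79 with at least 1000 UMIs and 0.61 at resolution 2.0, and Notch2 to -0.012 with at most 10% mitochondrial UMIs, -0.027 without shared barcodes, -0.055 with DESeq2, -0.16 without TMM scaling and -0.064 with filterByExpr. When 1 library was left out, values ran in ECs from -0.36 to 0.93 (Notch2), -1.20 to 9.22 (Notch4), -0.25 to 0.19 (Jag1) and -1.08 to 8.34 (Hey1), in SMCs from -0.67 to 0.34 (Jag1), in FBs from -1.31 to 1.15 (Hes1) and in perivascular MFs from -0.63 to 0.37 (Notch1), -0.32 to 0.39 (Notch2) and -1.86 to 0.85 (Hes1). The values of 9.22 and 8.34 come from leaving out young 1, after which the remaining young ECs hold 0 counts of those genes. Depth limits these comparisons, since the young SMC libraries together hold 0 to 6 counts per member.

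The age comparisons of ECs and SMCs with at least 1000 UMIs, that of SMCs with the set as a covariate, and the alternatives for arterial-like against capillary-like ECs gave no values or were not run.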
